A study of Bos taurus with 4 samples.

Results

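The genes described here encode the extracellular matrix of the ovarian follicle and the proteins that remodel it. The set holds 32 genes, chosen by gene name: 11 of the basal lamina, 8 of the interstitial collagens, 6 matrix glycoproteins and proteoglycans, and 7 of matrix turnover. The platform annotation gave a probe to 30 of the 32, out of 15229 gene symbols with a probe on the array. COL5A1 and COL5A2, the chains of type V collagen, had no probe of that symbol and were not analysed here. Of the 30, 29 exceeded the array's background in at least 4 of 8 channels and were tested, and 26 exceeded it in all 8. MMP2, the gelatinase that cleaves denatured collagen and type IV collagen, exceeded it in 1 of 4 good-donor and 1 of 4 poor-donor pools and was not tested. Where a gene had several probes the brightest stands for it.

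Granulosa cells, which line the follicle and nourish the oocyte, came from Holstein cattle after ovarian stimulation and coasting (a wait without hormone before collection) in a commercial setting for embryo production. Their total RNA was pooled by donor group, amplified linearly and labelled, and 1 good-donor pool was hybridised against 1 poor-donor pool on each of 4 two-colour arrays. Good donors are those rated as giving oocytes of good developmental competence, and poor donors those rated as giving oocytes of poor competence. Stimulation, coasting and breed were shared by both groups. The design text names 94 heifers and cows and assigns competent oocytes to cows and incompetent ones to heifers, whereas the title and array labels name heifers, so age class may differ between the groups and cannot be told apart from donor rating. The labels give no age and no number of animals in a pool.

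Arrays 1 and 2 carried good-donor pools 1 and 2 in Cy5 against poor-donor pools 9 and 10 in Cy3. Arrays 3 and 4 carried good-donor pools 3 and 4 in Cy3 against poor-donor pools 11 and 12 in Cy5. Below, a level is a probe's normalized log2 intensity in a pool, a ratio is log2 of good over poor on an array, and errors are the SD over the 4 arrays. The number of arrays limits the precision, and the p-values measure only the spread between these pools and arrays, not between animals. In RNA from pooled cells, fewer cells of a type and less RNA per cell cannot be told apart.

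The basal lamina is a sheet of type IV collagen and laminin networks joined by nidogens and perlecan. In the follicle it separates the granulosa cells from the vascularised theca, and granulosa cells make much of it themselves. In cattle, granulosa cells also lay down small patches of the same proteins between the cells, known as focimatrix, as follicles grow. Interstitial collagens and small proteoglycans are typical of the theca and stroma, and metalloproteinases and their inhibitors remodel the wall before ovulation.

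None of the 29 tested genes differed between good-donor and poor-donor pools past the threshold. The adjusted p was 1 for every one of them (limma with Benjamini-Hochberg adjustment over 31917 probes), and 0% of all tested probes passed. At an unadjusted p under 0.05, 1 member was higher in the good-donor pools (COL4A2), against 2.17% of all tested probes, and 0 were lower, against 1.37%. COL4A2 was also the 1 member with the same sign on all 4 arrays, where 5.11% of all tested probes were higher on all 4 and 4.18% lower. For 0 members did the 4 good and the 4 poor levels lie apart, against 1.89% of all tested probes. The SD over arrays exceeded the size of the mean ratio in 28 of the 29, against 90% of all tested probes. The mean ratio was above 0 in 14 and below 0 in 15, against 49.2% of all tested probes above 0.

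**Figure D1:**
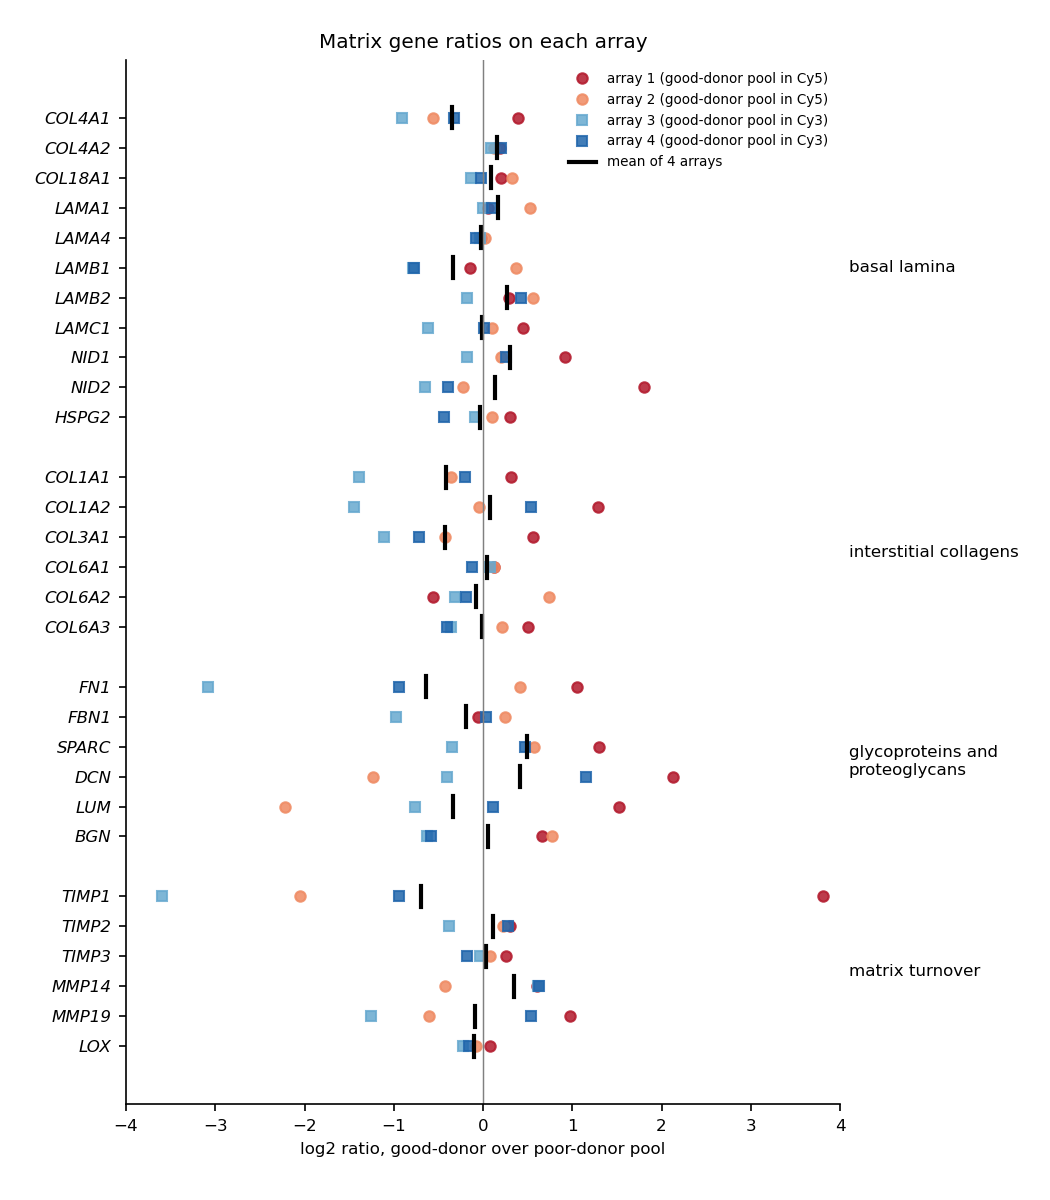
Log2 ratio of good-donor over poor-donor pool (horizontal axis) on each of the 4 arrays for the 29 tested matrix genes, grouped by role; circles are arrays 1 and 2 (good donors in Cy5), squares arrays 3 and 4 (good donors in Cy3), and black bars are means of 4. Points of a gene spread to both sides of 0 in all but COL4A2, and TIMP1 has the widest spread, from -3.60 to 3.81.

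Type IV collagen is the network-forming collagen of basal laminae, and its most common form is built from the COL4A1 and COL4A2 chains, whose genes are next to each other in the RefSeq annotation of assembly ARS-UCD2.0. COL4A2 levels were 7.21, 7.02, 6.88 and 6.84 in good-donor pools 1 to 4 and 7.02, 6.89, 6.79 and 6.63 in poor-donor pools 9 to 12. On each array the good-donor pool was the higher one, but the ranges of the groups overlapped. The ratio was 0.15 ± 0.053, a 1.11-fold difference with a 95% interval of 1.01-fold to 1.22-fold (unadjusted p = 0.0311, adjusted p = 1 in limma). COL4A1 gave another picture, with levels of 10.72, 10.00, 9.93 and 10.24 in good-donor pools and 10.32, 10.56, 10.83 and 10.56 in poor-donor pools. It was higher in the good-donor pool on array 1 and lower on arrays 2 to 4. Its ratio was -0.35 ± 0.55, with a 95% interval from -0.91 to 0.21. The ratios of the paired chains thus had opposite signs on arrays 2, 3 and 4, and the difference between the 2 genes was not tested. The COL4A2 probe was much dimmer than the COL4A1 probe, and the offset added to the intensities draws ratios of dim probes towards 0.

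Laminins are trimers of an alpha, a beta and a gamma chain. LAMA1, the alpha 1 chain, had levels of 13.09, 12.88, 12.71 and 12.94 in good-donor pools and 13.03, 12.36, 12.71 and 12.84 in poor-donor pools. The 8 pools were close except for the lower value in poor-donor pool 10, and the ratio was 0.17 ± 0.24. LAMB2, the beta 2 chain, had levels of 9.07, 9.22, 9.11 and 9.08 in good-donor pools against 8.79, 8.67, 9.29 and 8.66 in poor-donor pools. Its ratio was above 0 on arrays 1, 2 and 4, poor-donor pool 11 had the highest level of all 8, and the ratio was 0.27 ± 0.32 (unadjusted p = 0.0959). LAMB1, the beta 1 chain, had levels of 7.31, 7.78, 7.14 and 7.52 in good-donor pools against 7.46, 7.42, 7.92 and 8.29 in poor-donor pools. It was lower in the good-donor pool on arrays 1, 3 and 4, by a ratio of -0.78 and -0.77 on the last 2, and its mean ratio was -0.33 ± 0.55.

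LAMC1, the gamma 1 chain shared by most laminins, had levels of 10.05, 9.56, 9.43 and 9.45 in good-donor pools and 9.60, 9.47, 10.05 and 9.44 in poor-donor pools. Good-donor pool 1 and poor-donor pool 11 stood above the other 6, and the mean ratio was -0.017 ± 0.44. The other 2 LAMC1 probes had mean ratios of -0.037 and 0.16, so the 3 probes lay on both sides of 0. LAMA4, the alpha 4 chain typical of vessel walls, was dim, with levels between 6.25 and 6.36 in all 8 pools and a ratio of -0.025 ± 0.042. Probes above background in no channel had a median level of 6.01, and the offset added to the intensities draws the ratios of such dim probes towards 0.

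Nidogens 1 and 2 link the laminin and collagen networks. NID2 had levels of 7.83, 6.46, 6.21 and 6.66 in good-donor pools and 6.03, 6.69, 6.86 and 7.05 in poor-donor pools. Good-donor pool 1 exceeded poor-donor pool 9 by 3.49-fold, while the poor-donor pool was higher on the other 3 arrays, and the mean ratio was 0.13 ± 1.13. NID1 exceeded background in 3 of 4 pools of each group and had levels of 6.79, 6.94, 6.05 and 6.87 in good-donor pools against 5.87, 6.75, 6.23 and 6.61 in poor-donor pools. Its mean ratio was 0.30 ± 0.46. The level in poor-donor pool 9 was below the median of probes above background in no channel, so the ratio on array 1 was set against background, and the mean was 0.46 with an offset of 16. HSPG2, the heparan sulfate proteoglycan perlecan, ranged from 7.60 to 8.57 in good-donor and from 7.51 to 9.00 in poor-donor pools. The highest level in each group was on array 4, and the ratio was -0.031 ± 0.31. COL18A1, the collagen that carries endostatin, was dim (6.24 to 6.56) and had a ratio of 0.094 ± 0.21.

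Over the 11 basal lamina genes, the median ratio was 0.29, 0.13, -0.18 and -0.018 on arrays 1 to 4, a mean of 0.055 ± 0.20. The good-donor pool was higher for 9 of 11 on array 1 and on array 2, for 1 of 11 on array 3 and for 5 of 11 on array 4. The 1 gene higher on array 3 was COL4A2. With median centring in place of loess the counts were 9, 6, 4 and 7 of 11, and the median on array 4 was 0.076.

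COL1A1 and COL1A2 encode the chains of type I collagen, and COL3A1 that of type III collagen, the fibrillar collagens of connective tissue. COL3A1 had levels of 10.39, 10.45, 9.23 and 9.54 in good-donor pools and 9.83, 10.87, 10.34 and 10.25 in poor-donor pools. Good-donor pools 3 and 4 had the lowest levels of all 8, and the groups overlapped through pools 1, 2 and 9. Its ratio was -0.42 ± 0.72, with a 95% interval from -1.15 to 0.31 (unadjusted p = 0.196 in limma). COL1A1 had levels of 8.17, 8.04, 7.19 and 7.48 in good-donor pools against 7.86, 8.40, 8.58 and 7.68 in poor-donor pools. It shared the order of signs of COL3A1, above 0 on array 1 and below 0 on the other 3, and its ratio was -0.41 ± 0.71. COL1A2 had levels of 10.16, 9.25, 8.18 and 9.31 in good-donor pools against 8.88, 9.30, 9.62 and 8.77 in poor-donor pools. Good-donor pools 1 and 3 were its highest and lowest pools, 3.96-fold apart, and its mean ratio was 0.082 ± 1.15. The chains of type I collagen had ratios of the same sign on arrays 1, 2 and 3 and of opposite sign on array 4, -0.20 for COL1A1 and 0.54 for COL1A2.

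Type VI collagen forms beaded filaments around cells from the COL6A1, COL6A2 and COL6A3 chains, and COL6A1 and COL6A2 are neighbours in the RefSeq annotation. COL6A2 had levels of 7.53, 8.22, 7.74 and 7.70 in good-donor pools and 8.09, 7.49, 8.06 and 7.88 in poor-donor pools. Its ratios were -0.56, 0.74, -0.31 and -0.18, with a mean of -0.081 ± 0.57, and on array 1 it was the 1 tested collagen of this group below 0. COL6A3 was dim, with ratios of 0.50, 0.21, -0.36 and -0.40 and a mean of -0.012 ± 0.44. COL6A1 was at background in 1 poor-donor pool and had a ratio of 0.047 ± 0.12. Over the 6 tested collagens of this group, the median ratio was 0.41, 0.036, -0.74 and -0.19 on arrays 1 to 4, a mean of -0.12 ± 0.48. The good-donor pool was higher for 5 of 6 on array 1, 3 of 6 on array 2 and 1 of 6 on arrays 3 and 4. With median centring 3 of 6 were higher on array 4, and the median on array 2 was -0.093.

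Fibronectin (FN1) is a cell-binding glycoprotein that assembles other matrix proteins. Its levels were 10.78, 10.91, 8.42 and 9.51 in good-donor pools and 9.73, 10.49, 11.50 and 10.45 in poor-donor pools. The highest and the lowest level of all 8 pools met on array 3, where the poor-donor pool exceeded the good-donor pool by 8.45-fold. On arrays 1 and 2 the good-donor pool was higher, and the mean ratio was -0.64 ± 1.83, with a 95% interval from -2.47 to 1.19. SPARC, a collagen-binding glycoprotein, had levels of 11.77, 12.26, 11.05 and 11.60 in good-donor pools against 10.47, 11.68, 11.41 and 11.14 in poor-donor pools. Good donors were higher on arrays 1, 2 and 4, the groups overlapped, and the ratio was 0.50 ± 0.67, a 1.41-fold difference with a 95% interval of 0.88-fold to 2.27-fold (unadjusted p = 0.121).

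Decorin (DCN) and lumican (LUM) are small leucine-rich proteoglycans that bind collagen fibrils, and their genes are neighbours in the RefSeq annotation. DCN had levels of 10.24, 9.84, 9.19 and 9.42 in good-donor pools and 8.11, 11.07, 9.59 and 8.27 in poor-donor pools. The poor-donor pools spanned 7.79-fold and the good-donor pools 2.08-fold, all of the latter within the range of the former. LUM had levels of 10.71, 8.74, 9.12 and 9.38 in good-donor pools against 9.18, 10.96, 9.88 and 9.27 in poor-donor pools. Both genes had ratios above 0 on arrays 1 and 4 and below 0 on arrays 2 and 3, with means of 0.41 ± 1.52 for DCN and -0.34 ± 1.57 for LUM. On array 2 the poor-donor pool exceeded the good-donor pool by 2.36-fold for DCN and by 4.66-fold for LUM.

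Biglycan (BGN), a proteoglycan of the same family, had levels of 6.99, 7.65, 6.46 and 6.75 in good-donor pools and 6.33, 6.88, 7.09 and 7.34 in poor-donor pools. Its ratios were 0.66 and 0.77 on arrays 1 and 2 and -0.63 and -0.59 on arrays 3 and 4, so the mean of 0.052 ± 0.77 is that of opposite values by dye orientation. Fibrillin 1 (FBN1), the core of microfibrils, was dim and exceeded background in 3 of 4 good-donor and 4 of 4 poor-donor pools. Its ratio was -0.19 ± 0.54. In good-donor pool 3 its level of 5.89 was at background, so the ratio of -0.97 on array 3 depended on the offset, and the mean was -0.35 with an offset of 16. Over these 6 genes the median ratio was 1.18, 0.33, -0.70 and 0.070 on arrays 1 to 4, a mean of 0.22 ± 0.77. The good-donor pool was higher for 5 of 6 on array 1 and for 0 of 6 on array 3.

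**Figure D2:**
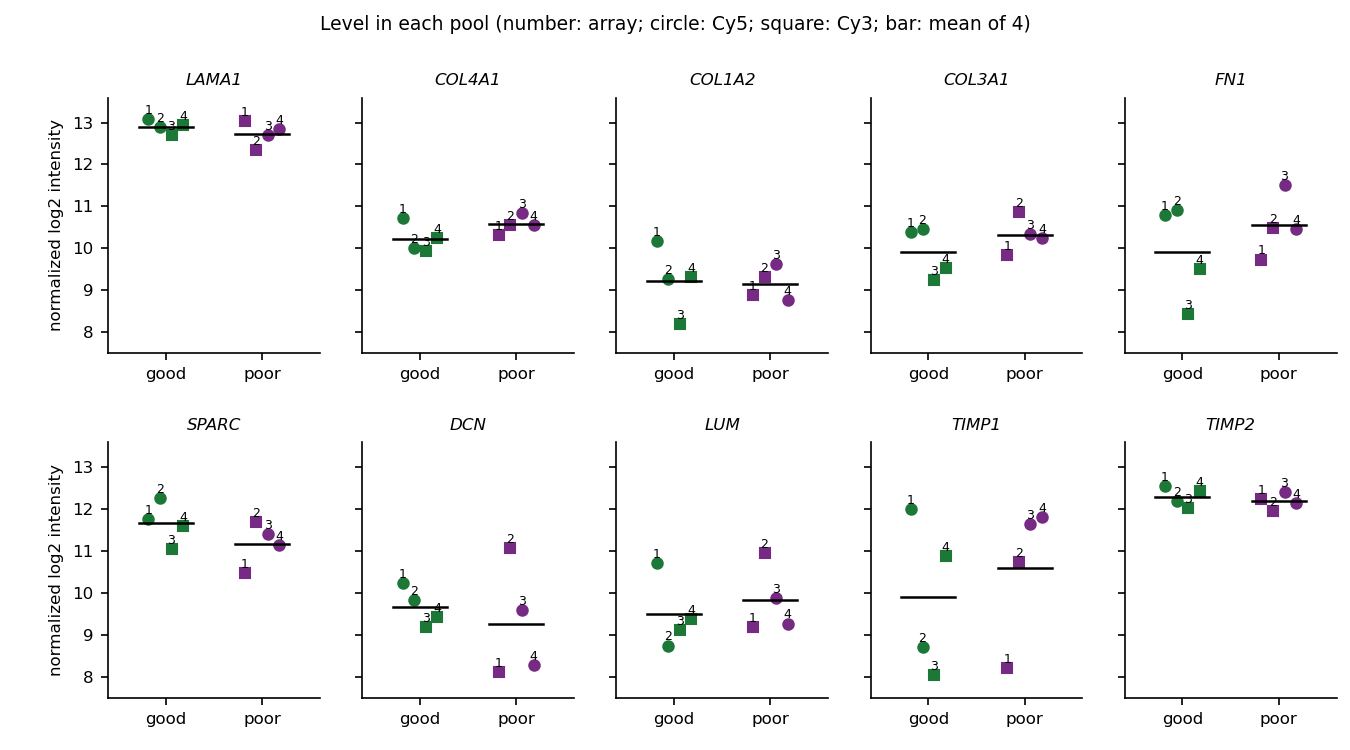
Normalized log2 intensity (vertical axis) of 10 matrix genes in each of the 4 good-donor and 4 poor-donor pools; numbers give the array, circles are Cy5 and squares Cy3, and bars are means of 4. The groups overlap in every panel, and TIMP1 runs from 8.04 in good-donor pool 3 to 12.00 in good-donor pool 1.

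TIMP1 is a secreted inhibitor of metalloproteinases that the ovulatory surge of gonadotropin is known to raise in cattle follicles. Its levels were 12.00, 8.70, 8.04 and 10.88 in good-donor pools and 8.19, 10.75, 11.64 and 11.82 in poor-donor pools. Good-donor pools 2 and 3 and poor-donor pool 9 formed the low end and the other 5 pools the high end, with both groups at both ends. The good-donor pool exceeded the poor-donor pool by 14.0-fold on array 1, and the poor-donor pool exceeded the good-donor pool by 4.14-fold, 12.1-fold and 1.92-fold on arrays 2, 3 and 4. The mean ratio was -0.70 ± 3.19, with a 95% interval from -3.89 to 2.50. The range over the 8 pools was 15.5-fold. A second TIMP1 probe had ratios of 3.97, -2.27, -3.64 and -1.01, and so gave the same signs and similar sizes.

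TIMP2, an inhibitor that also takes part in activating MMP2, had levels of 12.54, 12.19, 12.02 and 12.43 in good-donor pools and 12.24, 11.96, 12.40 and 12.15 in poor-donor pools. The 8 pools lay close together, and the ratio was 0.11 ± 0.33, with a ratio of -0.38 on array 3 apart from 0.23 to 0.30 on the others. TIMP3, the inhibitor that is bound to the matrix, was dim, with a ratio of 0.032 ± 0.18. The SD over arrays was thus 3.19 for TIMP1 and 0.33 for TIMP2. That of TIMP3 depended on the offset, 0.18 with an offset of 50 and 0.33 with an offset of 16.

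MMP14 is the membrane-bound metalloproteinase that activates MMP2. Its levels were 7.15, 6.88, 7.49 and 7.38 in good-donor pools against 6.55, 7.30, 6.88 and 6.75 in poor-donor pools. Good donors were higher by ratios of 0.60, 0.61 and 0.62 on arrays 1, 3 and 4 and lower by a ratio of -0.42 on array 2, and the mean was 0.35 ± 0.52 (unadjusted p = 0.148). MMP14 was the member with a ratio furthest above 0 on array 3, where 3 of 29 members were above 0, the others being COL4A2 and COL6A1. MMP19, a metalloproteinase of the preovulatory follicle in rodents, had levels of 8.29, 7.09, 7.03 and 7.73 in good-donor pools and 7.31, 7.70, 8.29 and 7.19 in poor-donor pools. Its ratio was -0.086 ± 1.03, with the signs of DCN and LUM. LOX, the enzyme that crosslinks collagen and elastin, was dim and had a ratio of -0.096 ± 0.13. MMP2 levels lay between 6.05 and 6.41, near the background. Over the 6 tested turnover genes the median ratio was 0.45, -0.25, -0.30 and 0.063, a mean of -0.011 ± 0.35, and the good-donor pool was higher for 6 of 6 on array 1.

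Across the whole set, most ratios lay on the same side of 0 on arrays 1 and 3, above it on array 1 and below it on array 3. The good-donor pool was higher for 25 of 29 genes on array 1, 18 on array 2, 3 on array 3 and 13 on array 4. Among all tested probes it was higher for 49.9%, 48.4%, 50.2% and 50.5%. The median ratio of the 29 genes was 0.39, 0.096, -0.38 and -0.075 on arrays 1 to 4, a mean of 0.0082 ± 0.32, beside medians within 0.0071 of 0 for all tested probes. With median centring in place of loess the counts were 25, 15, 6 and 17, while the medians of all tested probes moved to -0.083, -0.083, 0.066 and 0.084. The deposited ratios of the authors, turned to good over poor, gave 24, 19, 4 and 14.

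The signs of the 29 genes on the 4 arrays fell mainly into 4 patterns. COL4A1, NID2, COL1A1, COL3A1, TIMP1 and LOX had ratios above 0 on array 1 and below 0 on arrays 2 to 4, a pattern of 20.7% of the members and 7.53% of all tested probes. LAMA1, LAMB2, LAMC1, NID1, SPARC and TIMP2 were lower on array 3 alone, a pattern of 20.7% of the members and 5.07% of all tested probes. Some of these signs rest on ratios near 0, such as -0.0050 for LAMA1 on array 3 and 0.0090 for LAMC1 on array 4. COL1A2, DCN, LUM and MMP19 were higher on arrays 1 and 4, a pattern of 13.8% of the members and 4.59% of all tested probes. COL18A1, HSPG2, COL6A3, FN1, BGN and TIMP3 followed the dye orientation, a pattern of 20.7% of the members and 13.2% of all tested probes. The grouping was made after the values were seen and is a description.

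Over the 29 members, Pearson's r between the ratios of 2 arrays was -0.70 for arrays 1 and 2, -0.61 for arrays 1 and 3, -0.0020 for arrays 1 and 4, 0.39 for arrays 2 and 3, -0.057 for arrays 2 and 4 and 0.49 for arrays 3 and 4. Over all tested probes the same correlations were -0.018, -0.34, -0.075, 0.058, 0.041 and 0.29. These are correlations across genes, which share libraries and are not independent replicates. Genes with large ratios weigh most in them.

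**Figure D3:**
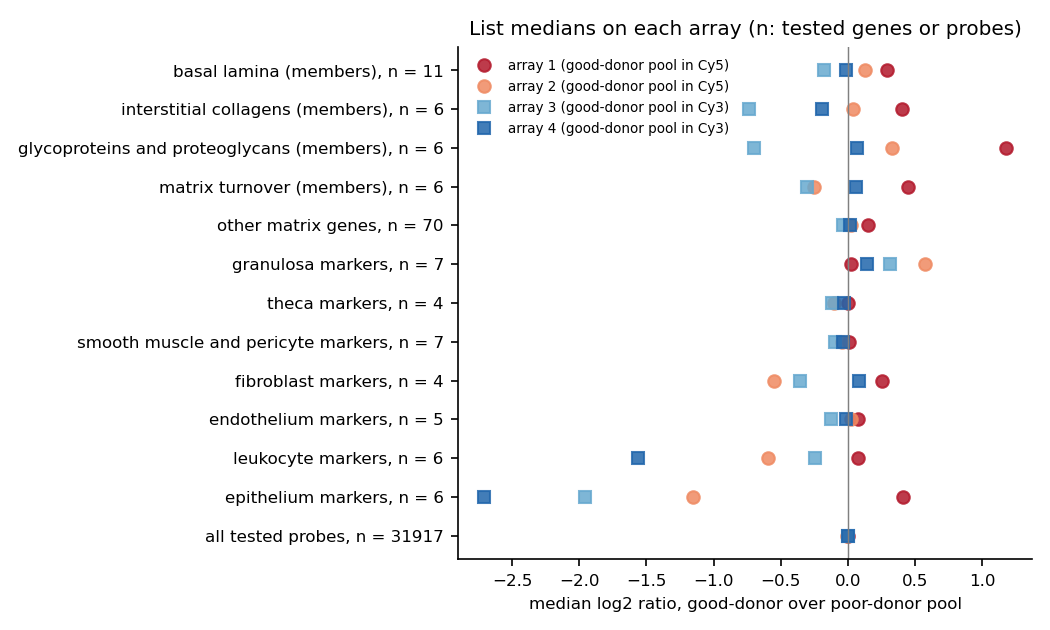
Median log2 ratio of good-donor over poor-donor pool (horizontal axis) on each array for the 4 groups of matrix genes, the other matrix genes, the 7 marker lists and all tested probes, with n the genes or probes tested; circles are arrays 1 and 2 (good donors in Cy5) and squares arrays 3 and 4 (good donors in Cy3). The medians of all 4 groups of matrix genes are above 0 on array 1 and below 0 on array 3.

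The spread of the members was large beside that of other probes. The SD of the ratio over the 4 arrays had a median of 0.54 for the members and 0.17 for all tested probes. For 17 of 29 members it was at or above the 90th percentile of all tested probes, which holds 10% of these by construction. Compared with probes of similar mean level (10 classes of equal size), 15 of 29 members were at or above the 90th percentile, and the median percentile was 90.8. TIMP1 stood at the percentile 99.98, FN1 at 99.75, LUM at 99.50 and DCN at 99.46. At the other end COL4A2 stood at 7.70 and LAMA4 at 4.32. COL4A2 and COL4A1, at 93.5, thus lay far apart in spread, but their probes were unlike in brightness. Levels were 6.63 to 7.21 for COL4A2 and 9.93 to 10.83 for COL4A1, and the offset draws ratios of dim probes towards 0. Within their classes of similar mean level they stood at 2.91 and 86.8. The difference in spread was not tested.

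**Figure D4:**
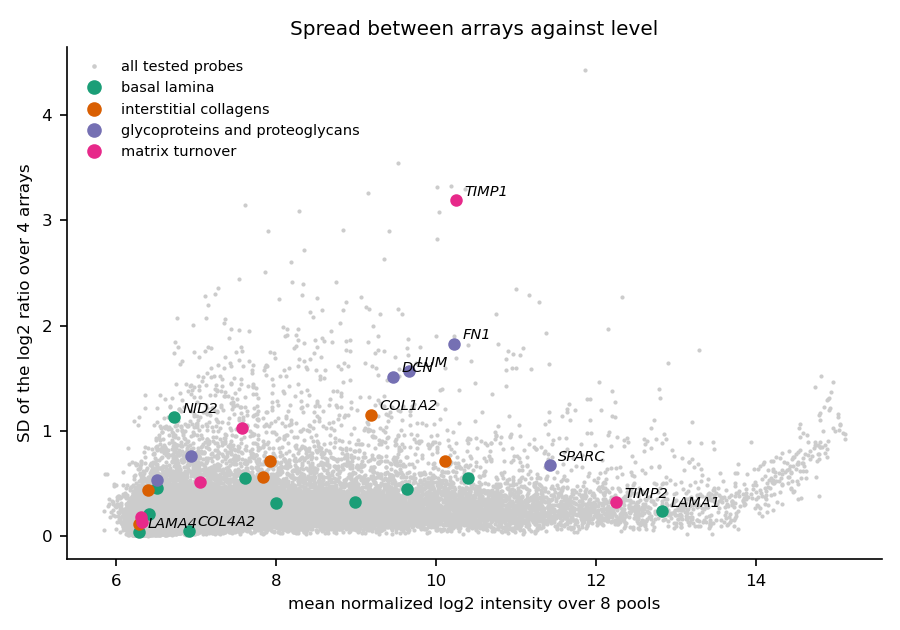
SD of the log2 ratio over the 4 arrays (vertical axis) against the mean normalized log2 intensity over 8 pools (horizontal axis); grey points are all tested probes and coloured points the 29 tested members by role. TIMP1 lies near the top at an SD of 3.19, while LAMA4 and COL4A2 lie at the bottom at 0.042 and 0.053.

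The dye orientation moved with many of these ratios. The dye effect, Cy5 over Cy3 at equal donor group, was above 0 in 27 of 29 members, against 52.1% of all tested probes, and its median was 0.26, against 0.0067. It passed the adjusted threshold in 0 members and in 0% of all tested probes. At an unadjusted p under 0.05 it was above 0 in 5 members (LAMB1, COL18A1, COL6A3, FN1 and BGN), against 7.42% of all tested probes, and below 0 in 0 members, against 9.2%. The 6 genes that followed the orientation had ratios above 0 on arrays 1 and 2 and below 0 on arrays 3 and 4. That pattern held for 13.2% of all tested probes, and its reverse for 0 members and 16.2%. BGN had means of 0.71 and -0.61 in the orientations (dye effect 0.66, unadjusted p = 0.000201, adjusted p = 0.148 in limma). FN1 had means of 0.74 and -2.01 (dye effect 1.37, unadjusted p = 0.0338). Each orientation holds 2 arrays with pools of their own, so dye and pools cannot be told apart. With median centring in place of loess, 19 of 29 members had a dye effect above 0, against 31.2% of all tested probes, and the medians were 0.092 and -0.079. BGN (adjusted p = 0.0492) and 2.8% of all tested probes then passed the adjusted threshold.

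**Figure D5:**
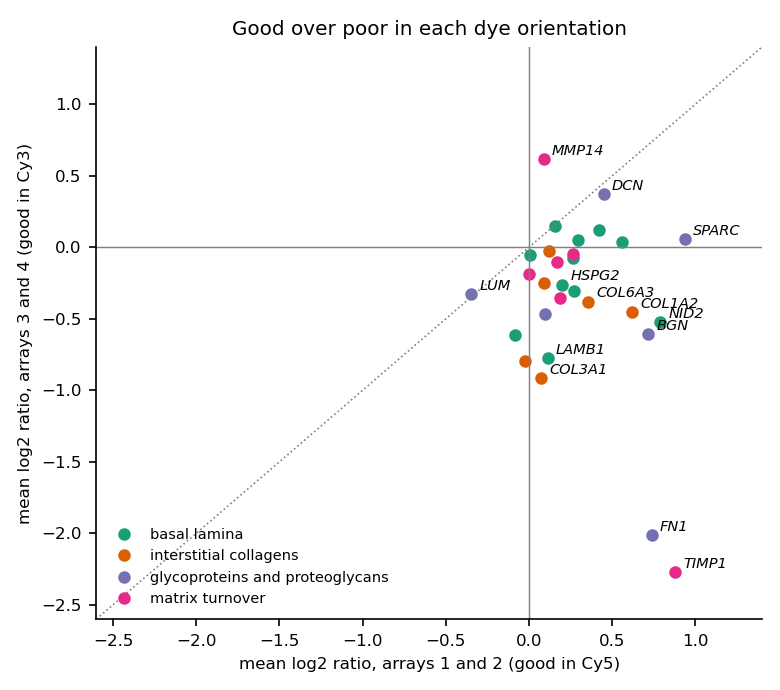
Mean log2 ratio of good-donor over poor-donor pool on arrays 3 and 4 (vertical axis, good-donor pool in Cy3) against that on arrays 1 and 2 (horizontal axis, good-donor pool in Cy5) for the 29 tested members; the dotted line marks equal values. MMP14 and LUM lie above the line and the other 27 below it, farthest for TIMP1 (0.88 and -2.27) and FN1 (0.74 and -2.01).

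Other genes of the matrix were taken from 6 lists of 82 genes, of which 77 had a probe and 70 were tested. None passed the adjusted threshold, and at an unadjusted p under 0.05 there were 2 of 70 higher and 0 lower, against 2.17% and 1.37% of all tested probes. Their median ratio was 0.15, 0.020, -0.034 and 0.014 on arrays 1 to 4, a mean of 0.037 ± 0.078, with 47, 36, 27 and 36 of 70 higher in the good-donor pool. The 2 genes were EFEMP2 and ASPN, named after their values were seen. EFEMP2, a fibulin of elastic fibres, had ratios of 0.72, 0.27, 0.14 and 0.72, a mean of 0.46 ± 0.30 (unadjusted p = 0.0144, adjusted p = 1 in limma). ASPN, a small leucine-rich proteoglycan, had ratios of 0.45, 0.53, 0.0035 and 0.16, a mean of 0.29 ± 0.25 (unadjusted p = 0.0435, adjusted p = 1).

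The other type IV collagen chains form networks that are more restricted among tissues. COL4A3 had a mean ratio of 0.29 ± 0.32, COL4A4 of -0.023 ± 0.43, COL4A5 of 0.15 ± 0.61 and COL4A6 of -0.0093 ± 0.56. COL4A3 was higher in the good-donor pool on arrays 2 to 4 and lower on array 1, the opposite signs to COL4A1. Among other laminin chains, LAMA5 had a mean ratio of -0.016 ± 0.24 and LAMB3 of 0.0043 ± 0.070. ITGA6 and ITGB1, the subunits of a laminin-binding integrin, had mean ratios of -0.0080 ± 0.29 and -0.087 ± 0.19.

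Collagen needs enzymes and a chaperone to be made. SERPINH1, the collagen chaperone HSP47, had ratios of -0.11, -0.25, 0.56 and 0.75, a mean of 0.24 ± 0.49. Its signs were the reverse of those of FN1 and BGN and also followed the dye orientation, a pattern of 16.2% of all tested probes. Its dye effect was -0.42 (unadjusted p = 0.00279, adjusted p = 0.196 in limma). Dye and pools cannot be told apart in it, and its mean ratio is that of opposite signs by orientation. The prolyl hydroxylase subunits P4HA1 and P4HA2 had mean ratios of 0.17 ± 0.13 and -0.037 ± 0.20, and the lysyl hydroxylase PLOD2 of 0.088 ± 0.31. ADAMTS1, a protease that cleaves versican and that the ovulatory surge raises in rodents, had levels of 10.00, 7.59, 7.61 and 8.02 in good-donor pools and 7.20, 8.84, 8.63 and 9.75 in poor-donor pools. Its ratios of 2.80, -1.25, -1.02 and -1.73 had the signs of those of TIMP1, and their mean was -0.30 ± 2.09.

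Markers of the labelled cell type were present: 6 of 7 granulosa markers exceeded background in all 8 channels, with a summed level of 15.85 to 16.68 in good-donor and 15.17 to 16.60 in poor-donor pools. INHA and INHBA were the brightest and made up most of these sums, with ratios above 0 on arrays 1 and 2 and below 0 on arrays 3 and 4. The sums were 16.51 to 16.68 in pools labelled with Cy5 and 15.17 to 16.08 in pools labelled with Cy3. They thus followed the dye orientation, and dye and pools cannot be told apart in them. FOXL2 was dim (6.22 to 6.59) and exceeded background in 4 good-donor and 2 poor-donor pools. The median ratio of the 7 was 0.020, 0.57, 0.32 and 0.14 on arrays 1 to 4. All 7 means were above 0, against 49.2% of all tested probes. FOXL2 (unadjusted p = 0.0440 in limma) and FSHR were above 0 on all 4 arrays, as were 5.11% of all tested probes. Markers of other cell types were detected too. Epithelium markers exceeded background in all 8 channels for 5 of 6 genes, with summed levels of 11.67 to 13.80 in good-donor and 12.90 to 15.31 in poor-donor pools. KRT8 was the brightest of the 6 in every pool, at 11.33 to 14.07, and which cells expressed it was not tested. The median ratio of the 6 was 0.41, -1.15, -1.96 and -2.71 on arrays 1 to 4. It was above 0 for 4 of 6 genes on array 1 and for 0 of 6 on the others. The other 2 genes were below 0 on all 4 arrays: KRT4 with ratios of -1.08, -3.34, -2.14 and -6.34 (unadjusted p = 0.0149, adjusted p = 1 in limma), and EPCAM with ratios of -0.20, -0.70, -1.78 and -2.79 (unadjusted p = 0.0292, adjusted p = 1). Leukocyte markers exceeded background in all 8 channels for 6 of 6 genes, with summed levels of 9.45 to 10.04 and 9.93 to 12.32. Their median ratio was 0.079, -0.59, -0.24 and -1.56. All 6 leukocyte and all 6 epithelium means were below 0. CD3D and S100A9 were below 0 on all 4 arrays (unadjusted p = 0.0518 and 0.0613 in limma), as were 4.18% of all tested probes. None of these markers passed the adjusted threshold.

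Fibroblast markers exceeded background in all 8 channels for 2 of 4 genes, with summed levels of 8.93 to 10.03 in good-donor and 8.97 to 10.34 in poor-donor pools. PDGFRA, the receptor that defines stromal fibroblasts, had ratios of 1.85, -1.09, -2.43 and 0.32, and FAP of 0.36, -0.30, -0.14 and 0.22. The other 2 differed from these in sign, THY1 with 0.14, 0.25, -0.57 and -0.049 and S100A4 with -0.17, -0.79, 0.12 and -1.89. Theca markers exceeded background in all 8 channels for 3 of 4 genes, with summed levels of 9.32 to 12.15 and 9.42 to 11.50. CYP17A1, the enzyme that defines theca cells, lay between 6.24 and 6.38, near background, whereas STAR, which luteinising granulosa cells also express, had ratios of 3.65, -0.20, -0.59 and -1.05. INSL3 had ratios of -0.040, -0.15, 0.11 and 0.24, and NR2F2 of -0.45, 0.064, -0.23 and -0.13. Smooth muscle and pericyte markers did so for 4 of 7 genes, with summed levels of 12.09 to 12.65 and 12.09 to 12.54. These sums were mainly ACTA2, at 11.83 to 12.46. MYH11 lay between 7.54 and 8.70 and CNN1 between 6.37 and 7.28. The ratios were 0.23, 0.39, -0.14 and -0.48 for ACTA2 and -0.11, 0.71, -0.13 and -0.73 for MYH11. Those of CNN1 were 0.90, -0.52, -0.87 and 0.073. TAGLN, DES, PDGFRB and RGS5 lay between 6.05 and 6.38, near background. Endothelium markers exceeded background in all 8 channels for 4 of 6, with summed levels of 8.90 to 9.20 and 8.87 to 9.19. PECAM1 exceeded background in no channel. KDR had ratios of 1.25, 0.071, -0.66 and 0.47, and VWF of 0.39, 0.023, -0.24 and -0.31. CDH5 had ratios of 0.076, -0.079, 0.010 and -0.036. The ratios were -0.049, 0.23, 0.084 and -0.016 for TEK and -0.043, -0.20, -0.13 and 0.36 for CLDN5. The part of other cell types in the ratios of the matrix genes was not tested.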

How the data were processed

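The deposited scanner files hold foreground and local background intensity per spot on a linear scale for Cy5 and Cy3, per the file headers. A second file that the authors deposited holds log2 ratios, normalized by a method not given in the sources used here. Its columns had Pearson's r of -0.98, -0.97, 0.96 and 0.98 with log2 of Cy5 over Cy3 on arrays 1 to 4, so all run as poor over good by the dye labels. Their medians were 0.023, 0.0039, -0.015 and -0.029, and the table served as an alternative only.

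Mean foreground was corrected with median background by normexp (offset 50), then normalized in limma 3.58.1 (R 4.3.3) by loess within arrays, control spots having weight 0, and by Aquantile between arrays. Of 43794 probes, 31917 exceeded the 95th percentile of 757 dark and negative control spots in at least 4 of 8 channels and were tested. Median foreground was 49.9 to 54.3 in Cy5 and 90.5 to 132 in Cy3. The 4 arrays were on 1 slide. The mean good over poor ratio was tested against 0 with lmFit and eBayes of limma, two-sided, with 3 residual and 1.98 prior degrees of freedom. The dye effect came from a fit with a dye term. P-values were adjusted by Benjamini-Hochberg over all tested probes, with a threshold of 0.05. The fit was tested on simulated ratios.

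All 32 members are named, each by its brightest probe. Of the other matrix genes, the rule names the laminin and type IV collagen chains tested, SERPINH1, P4HA1, P4HA2, PLOD2, ADAMTS1, ITGA6, ITGB1 and any past the threshold. Members and lists were chosen with earlier results of these data known. Names are those of the array's platform annotation and can be out of date. Alternatives changed the background correction, offset, normalization, filter, foreground statistic, probe choice, dye term, variance trend and source of values, and left out each array.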

Additional observations from a re-analysis of the deposited data

Results flagged for a closer look

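In 6 members the good-donor pool was higher on both arrays where it was in Cy5 and lower on both arrays where it was in Cy3. The orientation means and the dye effect, which is the difference between them divided evenly between the dyes, were 0.27 and -0.077 (dye effect 0.17) for COL18A1, the endostatin-bearing collagen, and 0.20 and -0.26 (0.23) for HSPG2, perlecan. They were 0.36 and -0.38 (0.37) for COL6A3 and 0.74 and -2.01 (1.37) for FN1, fibronectin. They were 0.71 and -0.61 (0.66) for BGN, biglycan, and 0.17 and -0.11 (0.14) for TIMP3. None of the 6 dye effects passed the adjusted threshold in limma, and 13.2% of all tested probes showed this pattern of signs.

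In 3 of 92 sets of 4 values, 1 value stood far from the other 3, where chance gives about 1 in 20 and so 4.6 sets. LAMA4, a laminin chain of vessel walls, had a level of 6.36 in poor-donor pool 12 on array 4, against 6.27 to 6.28 in the other poor-donor pools. TIMP2 had a ratio of -0.38 on array 3, against 0.23 to 0.30 on the others. MMP14, the membrane-bound activator of MMP2, had a ratio of -0.42 on array 2, against 0.60 to 0.62 on the others.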

How the results depend on the processing

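In the alternatives run, 0 members passed the adjusted threshold for good over poor. The smallest adjusted p of a member for that comparison was 0.833 in limma, without array 1. For the dye effect, 1 member (BGN) passed with median centring. Of the 11 alternatives that kept all arrays, those that changed the filter, dye term, variance trend or Aquantile could not change a mean ratio. The probe choice could change only that of LAMC1 and TIMP1, the members with several probes. Over the 11 alternatives, 27 of 29 members kept the sign of their mean ratio. The exceptions, both near 0, were COL6A3 (0.0052 without background subtraction, 0.0018 with median centring) and LAMC1 (0.017 with median centring, 0.015 in the deposited ratios). With median centring, the dye effect was -0.0051 for COL4A1, -0.15 for COL4A2, -0.062 for LAMA1, -0.12 for LAMB2, -0.0034 for HSPG2, -0.053 for COL6A2, -0.22 for DCN and -0.049 for TIMP2, and 0.51 for BGN. The cause was not tested.

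Leaving out 1 array at a time left 15 of 29 members with 1 sign. Several of these still moved by over 1.5 times: COL4A1 ranged from -0.60 to -0.16, COL1A1 from -0.65 to -0.085 and COL3A1 from -0.75 to -0.19, each lowest without array 1 and highest without array 3. SPARC ranged from 0.23 to 0.78 and NID1 from 0.089 to 0.46, each lowest without array 1, and LAMA1 from 0.052 to 0.23, lowest without array 2. The mean ratio of the members that changed sign ranged from -0.17 to 0.18 for LAMC1, -0.43 to 0.39 for NID2, -0.14 to 0.10 for HSPG2, -0.32 to 0.59 for COL1A2, -0.35 to 0.079 for COL6A2, -0.18 to 0.12 for COL6A3 and -1.20 to 0.18 for FN1. It ranged from -0.33 to 0.073 for FBN1, -0.16 to 0.96 for DCN, -0.96 to 0.29 for LUM, -0.19 to 0.28 for BGN, -2.20 to 0.27 for TIMP1, -0.042 to 0.10 for TIMP3 and -0.44 to 0.30 for MMP19. The medians of the interstitial collagens, of the glycoproteins and proteoglycans, and of the turnover genes ranged from -0.30 to 0.083, -0.098 to 0.53 and -0.16 to 0.086, with array 1 or array 3 left out at the ends. The tests were paired by array, because each ratio sets a good-donor against a poor-donor pool on 1 array. The replicate numbers are those of the arrays and give no further pairing. With 4 arrays, ratios of dim members such as LAMA4, COL6A1, TIMP3 and LOX are compressed by the offset: with an offset of 16 the COL4A2 ratio was 0.22 and the LOX ratio -0.18.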
